A study of Homo sapiens with 48 samples.

Results

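Set E is 1 of 8 lettered sets of K562 arrays, and its 6 samples of the 48 in the series were chosen by the letter E in their titles. It holds 3 samples of mock-treated cells and 3 samples of cells treated with 1 micromolar imatinib for 24 hours. All groups of the series are K562, an established human leukaemia line whose growth is driven by the BCR-ABL1 fusion kinase, and imatinib inhibits that kinase. The question was which transcripts differed between imatinib and mock samples, over all 22215 probe sets that are not array controls. It was also asked how far each change differed from the mean change of the other 7 sets. Values are log2 levels on Affymetrix arrays, and a change is the mean of the imatinib samples minus the mean of the mock samples, so that a change of 1 is a doubling.

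Per the labels, about 8 micrograms of total RNA were used for each array in both groups. Mock RNA was isolated with Trizol and then a column kit and received the usual level of RNA spikes, while imatinib RNA was isolated with the column kit alone and received a reduced level. Treatment, isolation method and spike level therefore cannot be told apart in set E. Mock treatment also stands among the keywords of the imatinib samples, and the groups here follow titles and descriptions. The labels say neither what a set letter marks nor whether cultures were separate. The p-values thus reflect only the spread among the samples, possibly a technical one.

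BCR-ABL1 sends signals through STAT5, which drives survival genes such as those of the PIM and BCL2 families and feedback inhibitors of the SOCS family, and through the RAS and ERK kinases, which drive early response genes such as EGR1 and the MYC programme of ribosome and metabolite production. K562 cells can form either red cell or megakaryocyte features. Red cell precursors make globin chains, heme through a pathway that starts with ALAS2, and a membrane skeleton anchored by band 3, whereas megakaryocytes use the tubulin TUBB1 in the microtubule ring of platelets.

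The upstream sequences of 3 genes are shown because ALAS2 had the largest rise in set E, EGR1 the largest fall and TUBB1 the largest called departure from the other sets, each gene being represented by its brightest probe set and lying at or above the median level. Each is the 250 bases before the transcription start, on the strand of the gene, from RefSeq, build GRCh38.p14. ALAS2 lies at chrX:55030978-55031227 on the minus strand, and capitals mark GATAA, the core letters bound by GATA factors, read on both strands.

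ALAS2: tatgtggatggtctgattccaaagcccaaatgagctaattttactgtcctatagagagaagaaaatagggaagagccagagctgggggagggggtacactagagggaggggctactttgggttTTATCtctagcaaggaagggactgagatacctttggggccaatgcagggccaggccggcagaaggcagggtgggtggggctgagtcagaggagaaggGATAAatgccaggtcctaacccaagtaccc

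TUBB1 lies at chr20:59019179-59019428 on the plus strand, and capitals mark CACCC, the core letters bound by KLF factors, on both strands, since GATAA was not found in this window.

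TUBB1: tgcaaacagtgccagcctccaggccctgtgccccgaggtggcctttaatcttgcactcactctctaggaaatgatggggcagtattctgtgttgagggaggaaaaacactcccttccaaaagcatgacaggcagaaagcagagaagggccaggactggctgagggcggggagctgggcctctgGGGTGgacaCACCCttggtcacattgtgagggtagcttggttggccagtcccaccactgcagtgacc

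EGR1 lies at chr5:138465229-138465478 on the plus strand, and capitals mark the CArG box, the element bound by serum response factor.

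EGR1: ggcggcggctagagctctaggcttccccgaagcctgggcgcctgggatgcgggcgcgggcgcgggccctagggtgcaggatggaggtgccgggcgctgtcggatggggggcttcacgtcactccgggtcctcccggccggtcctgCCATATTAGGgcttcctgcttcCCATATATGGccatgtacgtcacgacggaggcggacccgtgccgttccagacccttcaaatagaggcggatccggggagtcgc

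GATAA was present 2 times in the ALAS2 window and in 20.4% of 35116 RefSeq windows of this length. CACCC was present 2 times in the TUBB1 window and in 54.7% of all windows. The CArG box was present 2 times in the EGR1 window and in 1.16% of all windows. These matches describe letters only and say nothing of binding in these cells.

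The 3 imatinib samples of set E differed among themselves more than the mock samples did. Deviations from the mean of 3 samples are negatively correlated by construction; the correlation over 22215 probe sets was -0.866 between imatinib 1 and imatinib 2, -0.262 and -0.256 between imatinib 3 and these, and -0.657 to -0.266 between mock samples. The SD of the deviation was 0.173 in both against 0.0895 in imatinib 3 and 0.0815 to 0.104 in the mock samples. Among the brightest 5554 probe sets the median difference from the mean mock was -0.051 in imatinib 1, -0.26 in imatinib 2 and -0.14 in imatinib 3. Among the dimmer probe sets, taken as 3 groups by level, imatinib 2 lay 0.14 to 0.20 above the mean mock and imatinib 3 lay 0.07 to 0.11 above it, while imatinib 1 stayed within 0.01 of it. Imatinib 2 thus had the most compressed scale, with an SD over probe sets of 1.69 against 1.75 in imatinib 3 and 1.81 in imatinib 1, where the mock samples had 1.81 to 1.82.

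**Figure D1:**
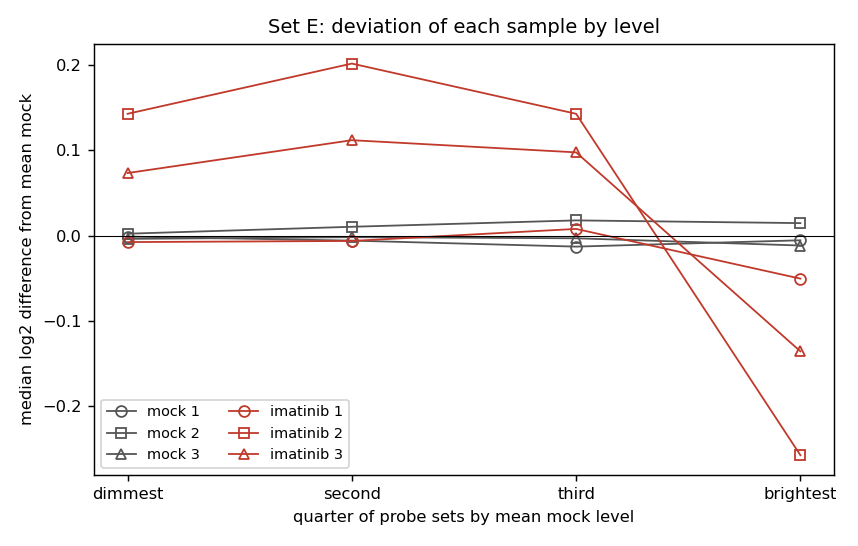
Median log2 difference of each of the 6 samples from the mean mock, in 4 groups of probe sets ordered by mean mock level (horizontal axis). Circles, squares and triangles are replicates 1, 2 and 3, in grey for mock and red for imatinib; imatinib 2 runs from about 0.14 in the dimmest group to -0.26 in the brightest, and imatinib 1 stays near 0.

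Control probe sets also moved with treatment in set E. The mean log2 level of 24 spiked poly-A RNA probe sets was 4.47, 4.48 and 4.52 in mock and 4.28, 4.29 and 4.26 in imatinib samples. Their difference of -0.21 lay within the range of -0.54 to -0.11 in the other 7 sets, all of which were lower with imatinib. The 18 hybridisation controls differed by -0.44, outside the range of -0.28 to 0.53 in the other sets. The 6 probe sets of 18S ribosomal RNA differed by -0.46, within the range of -1.72 to 0.37 in the other sets. The gap between 3 prime and 5 prime GAPDH probe sets, a sign of RNA degradation, was 0.89, 0.80 and 0.92 in mock and 0.996, 0.965 and 1.10 in imatinib samples. Its difference of 0.15 lay above the range of -0.09 to 0.08 in the other sets, while the gap for actin differed by 0.02. By an exact two-sided permutation test, p was 0.1 for the first 4 controls, the smallest that 3 samples against 3 allow, and 0.8 for actin, with 0.125 and 0.8 after Benjamini-Hochberg adjustment over these 5. The part of these differences in the gene results was not tested.

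In set E 4307 of 22215 probe sets differed between imatinib and mock samples at an adjusted p under 0.05 (19.4%, limma with Benjamini-Hochberg adjustment). Of these, 1609 rose (7.24%) and 2698 fell (12.1%). At least 2-fold, 270 rose (1.22%) and 552 fell (2.48%). With or without a call, the 2 groups did not overlap at 4089 probe sets with higher treated values (18.4%). The same held at 3818 with lower treated values (17.2%). Represented by its brightest probe set, 968 of 11963 genes rose (8.09%) and 1616 fell (13.5%). These percentages are the background for the list counts below that use all 6 samples as deposited. Leaving out 1 sample moved a list's count by over 1.5 times only where that count was 6 or fewer. The median change of all genes was 0.07. For list counts under other settings the background is the number of calls among all 22215 probe sets under that setting. That background counts probe sets and not genes, so it is only a rough guide for lists of genes. Without imatinib 1 the calls numbered 7371, of which 3703 rose and 3668 fell. After quantile scaling 1896 rose and 2598 fell. Calls that rose numbered 974 without mock 1, 1063 without mock 2, 1067 without mock 3 and 1006 without imatinib 3. Calls that fell numbered 2021, 1986, 2154 and 2010 in the same order. In all such bulk measurements a smaller share of cells expressing a gene and less RNA per cell cannot be told apart.

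K562 identity was checked with genes known from this line. Of 11 measured genes 10 lay at or above the median level of 5.78, led by HBE1 at 12.1 and TFRC, the transferrin receptor, at 12.2 in mock cells on the log2 scale. The kinase genes of the fusion moved little: ABL1 measured 8.78, 8.99 and 9.02 in mock and 9.41, 9.19 and 9.27 in imatinib samples, which was 0.36 ± 0.11 (SE, n = 3 in each group) higher with an adjusted p of 0.0333. BCR measured 6.39, 6.66 and 6.52 against 6.72, 6.11 and 6.64, a change of -0.03 with an adjusted p of 0.907. The ABL1 groups did not overlap, but its call was lost after centring the arrays (adjusted p 0.0878) and without any single mock sample or imatinib 3 (adjusted p 0.0608 to 0.157). The BCR groups overlapped.

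Among markers of other cells, 2 of 11 for monocytes and granulocytes, 3 of 8 for B cells, 7 of 11 for T cells and 8 of 12 for fibroblasts and epithelia lay at or above the median level. The brightest in mock cells were KRT18 at 10.42, FN1 at 9.24, KRT8 at 8.30, CD22 at 7.88 and CD3D at 7.42. The mean log2 level of 11 monocyte and granulocyte markers was 5.01 to 5.05 in mock and 5.01 to 5.22 in imatinib samples, that of 8 B cell markers 5.66 to 5.76 against 5.72 to 6.02, and that of 11 T cell markers 5.80 to 5.89 against 5.70 to 5.98. None of these markers rose, although without imatinib 1, 2, 3 and 3 of them were called higher in the 3 lists, and CD3D, a chain of the T cell receptor complex, fell by 1.62, from 7.56, 7.21 and 7.50 to 5.69, 5.86 and 5.86. Of 12 fibroblast and epithelial markers 3 fell, namely FN1 (fibronectin), KRT8 and KRT18 (keratins), by 1.54, 1.28 and 1.27. The list's mean went from 6.59 to 6.63 in mock down to 6.28 to 6.29 in imatinib samples. Array values have no true zero, so no marker could be scored as absent.

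Genes of red cell formation led the rises. ALAS2, the rate-limiting enzyme with which erythroid cells begin to make heme, measured 5.90, 5.71 and 5.93 in mock and 10.86, 10.65 and 10.77 in imatinib samples. Its change of 4.91 ± 0.10 (SE) was a 30.1-fold rise with an adjusted p of 2.34e-10. The groups were far apart, and the change equalled the mean of 4.91 in the other sets.

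HBZ, the embryonic zeta globin, measured 9.69, 9.85 and 10.09 in mock and 13.83, 13.82 and 13.87 in imatinib samples, a 15.6-fold rise (3.96 ± 0.11, adjusted p 3.21e-09). The 3 treated samples were nearly equal near the top of the scale, whose highest value in the series was 14.95. SLC4A1, the anion exchanger band 3, rose 10.7-fold from 6.34, 6.79 and 6.89 to 10.46, 9.91 and 9.94. KEL, the Kell blood group protease, rose 6.30-fold from 7.49, 7.20 and 7.11 to 10.03, 9.63 and 10.10. Neither gene's groups overlapped, and imatinib 2 was the lowest treated sample for both.

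Among the other genes with the 12 largest rises, LBH, a transcription regulator, rose 15.6-fold, the water channel AQP1 13.3-fold, COL18A1 (collagen XVIII) 12.6-fold and PPOX, a late enzyme of heme synthesis, 11.1-fold. SLC25A37, the mitochondrial iron importer mitoferrin-1, rose 8.72-fold, RELN (reelin) 8.24-fold, TSC22D1 8.12-fold and ADD2, the beta-adducin of the membrane skeleton, 6.59-fold. All 12 had an adjusted p at or below 4.07e-07 by limma. Other probe sets of some of these genes gave other sizes: those of SLC25A37 gave 2.41 and 3.35 against 3.12, and those of ADD2 0.27 and 0.83 against 2.72.

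**Figure D2:**
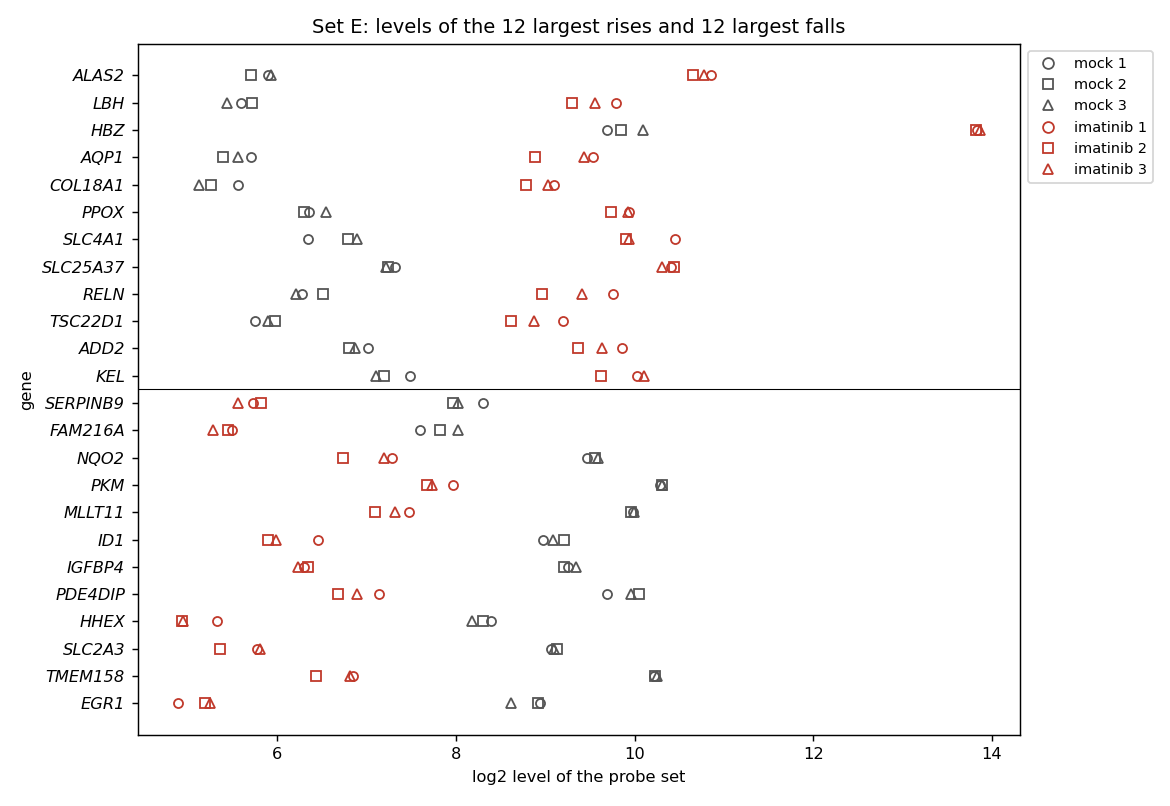
Log2 levels of the genes with the 12 largest rises (above the line) and the 12 largest falls (below it) in each of the 6 samples of set E; grey symbols are mock, red symbols imatinib, and circles, squares and triangles are replicates 1, 2 and 3. The groups do not overlap in any of these genes, as the rule that chose them required, and HBZ lies highest at about 13.8 in treated cells.

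Each of the 5 globin genes measured rose, their median change being 1.37 beside 0.07 for all genes. HBE1, the embryonic epsilon chain, was already bright and went from 12.18, 12.08 and 12.12 to 13.52, 13.45 and 13.51, a 2.58-fold rise. HBD, the minor adult chain, rose 3.71-fold from 6.21, 5.91 and 6.0 to 8.09, 7.69 and 8.01. HBB, the adult beta chain, rose 2.28-fold at its brightest probe set, from 7.10, 7.02 and 7.20 to 8.36, 8.24 and 8.29. The other HBB probe sets gave 1.15 and 0.82, and whether any of them read HBB alone was not tested. HBQ1, the theta chain, rose 2.05-fold. The treated values of all 5 lay above the mock values without overlap, as was so at 18.4% of all probe sets. The probe sets of the alpha and gamma globins carry several gene symbols in the annotation and were not named.

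In heme synthesis and mitochondrial iron supply the median change was 1.02, with 9 of 12 measured genes higher and 1 lower. Beside ALAS2, PPOX and SLC25A37, these included FECH, which inserts the iron, at 2.39, and UROS, UROD and CPOX at 1.02, 1.0 and 1.02. ALAS1, the form of the first enzyme found in most cells, gave -0.36 and did not pass, and ISCU, the scaffold of iron-sulfur clusters, fell by 0.61. Of 7 genes of iron uptake and storage only 2 rose, TFR2 (transferrin receptor 2) by 1.68 and STEAP3, which reduces iron in endosomes, by 0.48, while TFRC gave 0.27 with an adjusted p of 0.0634.

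For the red cell membrane and surface the median change was 1.15, and 16 of 22 measured genes rose while 0 fell. Beyond band 3, KEL and ADD2 they included XK, the partner of Kell, at 2.38, EPB42 (protein 4.2) at 2.03, ICAM4 at 2.02, RHD at 1.93 and ANK1 (ankyrin) at 1.04. ACKR1, the Duffy antigen receptor, CD36 and CD44 gave 0.18, 0.10 and 0.14 and did not pass. Of 16 transcription factors of red cell precursors and progenitors 7 rose and 3 fell. KLF1, an activator of beta-globin and other red cell genes, rose 4.64-fold from 7.34, 7.56 and 7.60 to 9.87, 9.50 and 9.77, and GFI1B rose 3.66-fold. The progenitor factors MYB, HHEX and GATA2 fell by 2.06, 3.23 and 0.69, and GATA1, the main red cell GATA factor, rose by 0.41.

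Of 17 measured genes of megakaryocytes and platelets 3 rose and 0 fell, with a median change of 0.17, and 7 rose without imatinib 1. The 3 were TUBB1, NFE2 and GFI1B at 1.10, 0.89 and 1.87, the last 2 being transcription factors shared with the red cell lineage. ITGA2B and ITGB3, the platelet fibrinogen receptor, gave 0.21 and 0.12, and PF4, platelet factor 4, gave 0.17; none of these 3 passed.

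The falls were led by a transcription factor of early growth response. EGR1 measured 8.94, 8.92 and 8.62 in mock and 4.89, 5.19 and 5.25 in imatinib samples, a 13.2-fold fall (change -3.72 ± 0.13, adjusted p 6.25e-09 by limma). Its second probe set, less bright at 6.77 in mock, gave -0.87. The groups were apart at both.

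TMEM158, a membrane protein induced by RAS, fell 11.6-fold from 10.22, 10.22 and 10.26 to 6.85, 6.43 and 6.81. SLC2A3, the glucose transporter GLUT3, fell 11-fold from 9.07, 9.14 and 9.10 to 5.77, 5.36 and 5.81, and its 2 other probe sets gave -1.68 and -5.04. ID1, an inhibitor of basic helix-loop-helix factors, fell 7.86-fold from 8.97, 9.21 and 9.09 to 6.45, 5.90 and 5.99. Imatinib 2 was the lowest sample for these 3 genes, and no treated value reached the mock range.

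PKM, the pyruvate kinase, fell 5.71-fold from 10.29, 10.31 and 10.31 to 7.97, 7.68 and 7.73, while its other, dimmer probe set gave -0.25 and did not pass. NQO2, a quinone reductase that also binds imatinib, fell 5.54-fold from 9.47, 9.56 and 9.59 to 7.28, 6.73 and 7.19. HHEX fell 9.37-fold, PDE4DIP (myomegalin) 7.96-fold, IGFBP4, a binding protein of insulin-like growth factors, 7.88-fold, MLLT11 6.40-fold, FAM216A 5.29-fold and SERPINB9, an inhibitor of granzyme B, 5.26-fold. Other probe sets of PDE4DIP ranged from -2.04 to -0.03, and that of SERPINB9 gave -1.30.

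Targets of STAT5 mostly fell: 11 of 17 were lower and 2 higher, with a median change of -0.95. SOCS2, a feedback inhibitor of cytokine receptors, fell from 8.33, 8.47 and 8.37 to 6.41, 6.06 and 6.19, a 4.50-fold fall. MYC fell 2.80-fold from 9.38, 9.47 and 9.41 to 8.01, 7.87 and 7.92, and CISH, PIM1, PIM2 and CCND2 fell by 1.40, 0.95, 1.12 and 1.97. The 2 that rose were CCND3 (cyclin D3) by 1.13 and ID2 by 0.31.

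ERK feedback and early response was represented by 24 genes, of which 12 were lower and 1 higher. IER2 fell by 1.80, JUN by 1.15, SPRY4, a feedback inhibitor of RAS signalling, by 1.38 and FOSL1 by 0.84. DUSP6, the phosphatase of ERK, gave 0.09 and DUSP4 0.15, and neither passed. DUSP1, a phosphatase also induced by stress, rose by 1.44, and without imatinib 1 the genes called higher numbered 4.

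Genes that supply growth fell in large shares. In ribosome biogenesis 18 of 22 fell and 0 rose, among them DDX21, a nucleolar helicase, which fell 4.12-fold from 9.79, 9.69 and 9.55 to 7.78, 7.53 and 7.59. NOP16 fell by 1.43 at its brightest probe set, while another gave -0.94 and the remaining 2 gave 0.23 and -0.02. The 31 cytosolic ribosomal protein genes behaved otherwise, with 0 higher, 1 lower and a median of -0.005; the one that fell, RPLP2, fell by 0.67 and gave -0.25 at a dimmer probe set.

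The ATF4 and amino acid response had a median change of -0.97, and 25 of its 29 genes fell while 0 rose. WARS1, which charges tRNA with tryptophan, fell 3.73-fold, DDIT4, an inhibitor of mTORC1, 3.86-fold and PSAT1, an enzyme of serine synthesis, 3.38-fold. ASNS (asparagine synthetase) fell by 1.85, and MTHFD2, an enzyme of mitochondrial folate metabolism, changed by -1.94. ATF4 itself fell by 0.42.

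Many protein folding genes also fell. Of 19 endoplasmic reticulum chaperones 13 fell and 0 rose, among them HSPA5 (BiP) by 1.76 and HSP90B1 by 1.37. Of 13 heat shock genes, whose median change was -0.67, 9 fell and 1 rose. HSPA9, the mitochondrial HSP70, and HSP90AA1 fell by 1.39 and 0.77, and the gene that rose was HSF1, the heat shock transcription factor, by 0.68.

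In glycolysis and glucose uptake 14 of 21 genes fell and 1 rose. HK2 (hexokinase 2), ENO1, PGK1 and LDHA fell by 1.62, 1.13, 0.99 and 0.93, while SLC2A1, the glucose transporter GLUT1, rose by 1.03. For cholesterol synthesis 9 of 17 fell and 2 rose. IDI1, INSIG1 and HMGCS1 fell by 1.18, 1.25 and 1.03, and the 2 that rose were the regulators SREBF1 and SREBF2 at 0.50 and 0.32. In nucleotide and polyamine synthesis 14 of 21 fell and 0 rose, with SRM (spermidine synthase), PFAS and ATIC lower by -1.72, -1.23 and -1.12.

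Of 26 genes of oxidative phosphorylation 5 fell and 0 rose, near the background share, and 11 fell without imatinib 1 and 3 without imatinib 3 or mock 1. The list's median of -0.13 turned to 0.08 after quantile scaling, where 6 genes were called higher and 4 lower. CYCS (cytochrome c) fell by 1.77 from 11.24, 10.81 and 10.78 to 9.43, 8.71 and 9.37.

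Mitosis genes fell in 26 of 31 cases with 0 higher and a median of -0.65. CDC20, an activator of the anaphase-promoting complex, fell by 1.49 from 8.63, 8.63 and 8.65 to 7.54, 6.88 and 7.02, and CCNB1 (cyclin B1) and KIF11 fell by 1.34 and 1.05. DNA replication genes stood closer to the background, with 6 of 35 lower, 3 higher and a median of -0.14, which became 0.01 after quantile scaling with 9 called higher and 6 lower. Without imatinib 1, 14 of them fell, and 1 rose without mock 2, mock 3 or imatinib 3. CDT1, an origin licensing factor, rose by 0.56, while CDC45 and RFC3 fell by 0.54 and 0.65. Of 22 replication-type histone genes 5 rose and 0 fell, and 3 rose without mock 1, where H4C11 was no longer called.

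Of 23 CDK inhibitors and quiescence genes 8 rose and 2 fell. CDKN1C (p57) rose 2.70-fold, CITED2 5.17-fold and FOXO3 2.06-fold; CDKN1A (p21) and CDKN1B (p27) gave 0.10 and 0.58 and did not pass. Of 25 lysosome and autophagy genes 11 rose and 5 fell. ASAH1 (acid ceramidase) rose 4.62-fold and CTSB (cathepsin B) 2.81-fold, whereas CTSC (cathepsin C) fell 3.37-fold. The probe sets of ASAH1 ranged from 0.09 to 2.21.

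Within the BCL2 family 5 of 16 genes fell and 1 rose. MCL1, a survival protein, fell by 1.66 from 10.26, 10.35 and 10.30 to 8.90, 8.23 and 8.80, and the death-promoting BID and PMAIP1 (NOXA) fell by 1.19 and 1.78. BCL2L11 (BIM) gave 0.05 and did not pass. Of 29 interferon response genes 2 rose and 4 fell, and 10 rose without imatinib 1; the 4 that fell were IFITM1, IFITM2, IFITM3 and BST2, by 1.15, 1.22, 1.09 and 0.87. Among 11 targets of imatinib and genes of the fusion 2 rose and 2 fell: beside ABL1 and NQO2, the kinase LYN fell by 1.62 and the receptor kinase KIT rose by 0.39, the KIT call being lost without mock 1. Of 9 housekeeping genes 2 fell, ACTB (actin) by 0.46 and YWHAZ by 0.57.

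The order of the treated replicates recurred over these genes. Of the 968 genes that rose, imatinib 1 was the most changed replicate in 582 and imatinib 2 the least changed in 552. Of the 1616 that fell, imatinib 2 was the most changed in 1158 and imatinib 1 the least changed in 1260. Imatinib 2 was also the least changed in 11 of the 12 largest rises and the most changed in 8 of the 12 largest falls.

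Beside the other 7 sets, the response of set E was alike in direction and in overall size. Over 22215 probe sets its change correlated with the mean change of the other sets at 0.934. This describes probe sets that share the same 6 samples and so carries no p. Over the 11110 probe sets at or above the median level, the SD of the set E changes divided by that of those means was 1.01. That ratio compares the spread of the changes and not their agreement. Of 662 probe sets at or above the median level with a mean change of at least 1 in the other sets, all 662 had the same sign in set E. Their ratio of the set E change to that mean had a median of 0.960, with 0.752 and 1.19 at the 10th and 90th percentiles. By set, the correlation with set E ran from 0.843 for set F to 0.935 for set D.

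The difference itself was called for 24 probe sets (0.108%; limma over all 48 samples with a weight for each group, adjusted p), 15 with a more positive change in set E (0.0675%) and 9 with a more negative one (0.0405%). These are 7 of 11963 genes by their brightest probe set (0.0585%). The count rested on single libraries and sets: it was 385 without imatinib 1, 15 without imatinib 2, 3 without imatinib 3, 10 without mock 2, 39 without set D, 37 without set F and 7 without set G. With each set's change taken as 1 value, set E against 7, 0 were called and 954 had an unadjusted p under 0.05, which is 4.29% of those tested. The weighted test over 48 samples, applied to each other set against the rest, called between 10 (set H) and 2169 (set C). On simulated data 26 of 162 calls of this weighted test for set E were false, more than its threshold implies.

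**Figure D3:**
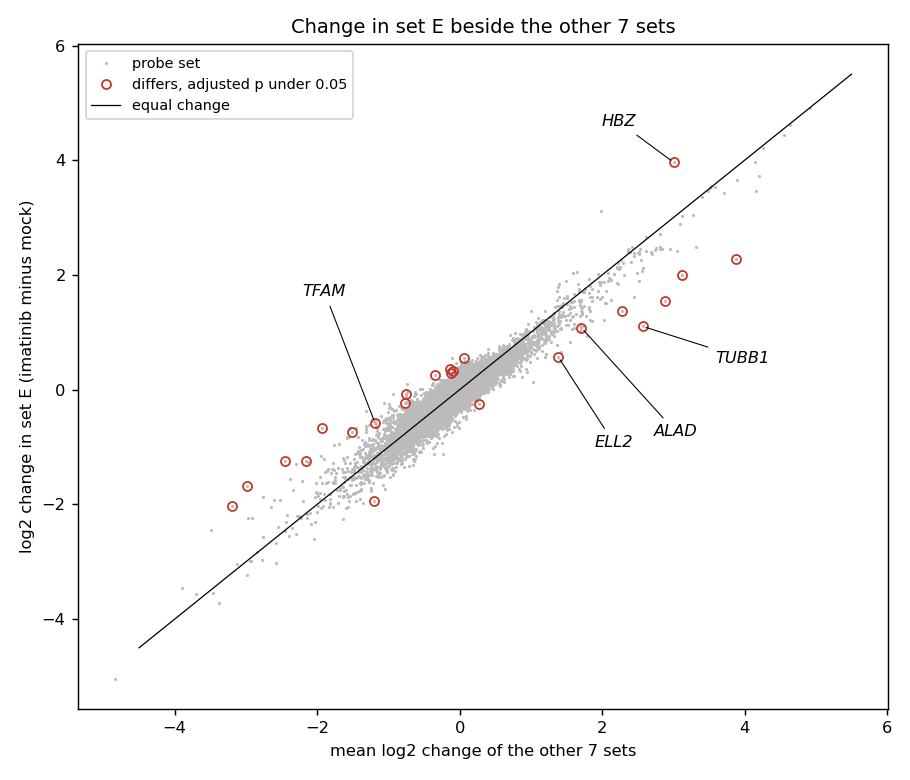
Log2 change in set E (vertical axis) against the mean log2 change of the other 7 sets (horizontal axis) for 22215 probe sets; the line marks equal change and red circles mark the 24 probe sets whose difference had an adjusted p under 0.05. Most points follow the line, HBZ lies above it, and TUBB1, ELL2 and ALAD lie below it.

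TUBB1 rose least in set E. It measured 5.53, 5.62 and 5.53 in mock and 6.91, 6.58 and 6.50 in imatinib samples, a 2.15-fold rise (1.10 ± 0.12). In the other sets its change was 1.84 in set D, 2.03 in set C, 2.06 in set F, 2.14 in set A, 2.80 in set H, 3.09 in set B and 4.01 in set G. Every other set was above set E, and the difference from their mean of 2.57 was -1.47 ± 0.19 (SE, adjusted p 1.94e-05). It was -1.23 without set G, which had the largest change (adjusted p 0.00413), and -1.39 without imatinib 3 (adjusted p 0.0454). With set changes as single values the adjusted p was 0.995 and the unadjusted p 0.0392. TUBB1 has a single named probe set here, whose mock values lay just below the median level of 5.78. Of the other 16 megakaryocyte and platelet genes none was called different, 4 lay above the range of the other 7 sets and 0 below it, where 13.5% of all genes lay above and 11% below.

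HBZ rose most in set E. Its change of 3.96 compares with 2.52 in set G, 2.93 in set D, 2.97 in set A, 2.99 in set H, 3.04 in set B, 3.13 in set F and 3.46 in set C, so set E was the highest of the 8. The difference from the mean of 3.01 was 0.96 ± 0.16 (adjusted p 0.00461), with an adjusted p of 0.855 without imatinib 3 and 0.0378 without set G. With set changes as single values the unadjusted p was 0.00198 and the adjusted p 0.995.

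The other globins did not share the size of this difference. HBE1 changed by 1.37 in set E and by 0.75 to 1.24 in the others, a difference of 0.37 (adjusted p 0.0815), and its second probe set differed by 0.27. HBD gave 1.89 within a range of 1.80 to 2.43, HBB 1.19 within 0.98 to 1.46 and HBQ1 1.04 within 0.98 to 1.31. Their differences from the mean of the other sets were -0.19, -0.09 and -0.13, with adjusted p-values of 0.858, 0.957 and 0.914. The other HBB probe sets differed by 0.19 and -0.07 (adjusted p 0.842 and 0.948 by limma). Thus, at the brightest probe sets, the 2 embryonic chains lay above all other sets and the other 3 chains lay within their range. Differences between globins in this respect were not tested.

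**Figure D4:**
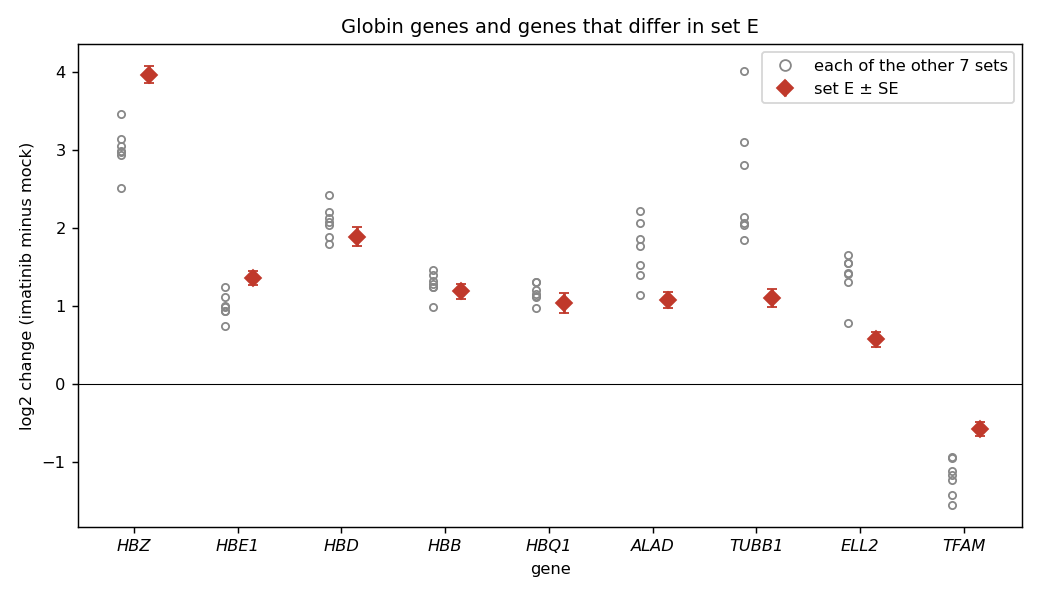
Log2 change after imatinib of the 5 globins and of 4 genes whose change differed in set E; open circles are the other 7 sets and red diamonds set E with its standard error. TUBB1 at 1.10, ELL2 at 0.57 and ALAD at 1.08 lie below all other sets, HBZ at 3.96, HBE1 at 1.37 and TFAM at -0.58 above them, and HBD, HBB and HBQ1 within their range.

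ALAD, the enzyme after ALAS2 in heme synthesis, rose less in set E, from 6.26, 6.13 and 6.29 to 7.48, 7.17 and 7.26. Its change of 1.08 lay just below the range of 1.14 to 2.22 and differed from the mean by -0.63 ± 0.13 (adjusted p 0.0216). Its other probe set differed by -0.91 (adjusted p 0.0462). The call at the brighter probe set was lost without each single mock sample (adjusted p of 0.0513, 0.0538 and 0.0827), without imatinib 2 (0.115), imatinib 3 (1), set C (0.0734) and set G (0.105). The other heme genes gave no call, and ALAS2 and PPOX differed by 0.00 and -0.02.

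ELL2, an elongation factor of RNA polymerase II, rose from 5.81, 6.01 and 5.92 to 6.56, 6.42 and 6.48. Its change of 0.57 lay below the range of 0.79 to 1.65, a difference of -0.81 ± 0.15 (adjusted p 0.0127), with an adjusted p of 0.0832 without mock 2, 1 without imatinib 3 and 0.0522 without set G. A second, dimmer probe set differed by -0.04.

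TFAM, which packages and transcribes mitochondrial DNA, fell less in set E at its brightest probe set, from 7.77, 7.76 and 7.76 to 7.17, 7.27 and 7.13. Its change of -0.58 lay above the range of -1.54 to -0.93, a difference of 0.61 ± 0.12 (adjusted p 0.0156), with an adjusted p of 0.059 without mock 2 and 1 without imatinib 3. The 2 other TFAM probe sets fell by 1.30 and 1.27 in set E and differed from the other sets by only 0.16 and 0.17 (adjusted p 0.91 for both), so the difference was not shared between the gene's probe sets.

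The other called probe sets with 1 gene symbol were dim except that of WDR77, and they are named here after their values were seen. CXCL3 and CXCL8, chemokines that attract neutrophils, fell less in set E, by 1.24 against a mean of -2.15 and by 0.67 against -1.93, at levels of 3.58 to 5.93 in set E. The dimmest SLC2A3 probe set fell by 1.68 against a mean of -2.99, whereas the brightest one differed by 0.44 (adjusted p 0.751) and lay above the range of the others, and the third one differed by -0.20 (adjusted p 0.914). LPL, the last of the 7 genes, and COL1A2, ELOVL5 and AHCYL1 gave 0.36, 0.26, 0.30 and 0.33 in set E against means of -0.14, -0.34, -0.12 and -0.09, and none of these 4 passed within set E. AJAP1 gave 0.56 against 0.06, ITPR1 -0.74 against -1.51, TNFRSF21 -0.07 against -0.76 and SLCO2B1 -0.25 against 0.27, all at levels under 5.78. Of these, TNFRSF21 and SLCO2B1 did not pass within set E either. WDR77, at a level of 7.06 to 7.43, gave -0.23 against -0.77 and did not pass within set E. For WDR77, CXCL8, COL1A2, ELOVL5, AHCYL1, AJAP1, ITPR1, TNFRSF21 and SLCO2B1 the called probe set is not the gene's brightest. The brightest probe sets of these genes were not called. Of the 24 called probe sets, 6 have no single gene symbol here and were not named. Their differences from the other sets were -1.59, -1.34, -1.13, -0.74, 1.18 and 1.22. The first of these was larger than that of TUBB1 and the largest of all 24. The second had the smallest adjusted p of all 24, 1.28e-06 by limma.

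More probe sets lay outside the range of the other 7 sets without a call: 3319 above (14.9%) and 2301 below (10.4%), and 5481 and 3584 without imatinib 1. Some set is the highest and some set the lowest at every probe set: set E lay outside the range of the rest at 25.3% of probe sets, where the other sets did so at 16.2% (set B) to 40.1% (set C), so this count is not particular to set E. Of the 12 largest rises 9 lay within the range, HBZ above it, and AQP1 and RELN below it at 3.73 and 3.04. Of the 12 largest falls 10 lay within it, SLC2A3 at -3.46 above and HHEX at -3.23 below. None of these was called different except HBZ. SLC25A37 had a change of 3.12 in set E and 0.41 to 3.25 in the other sets, the widest spread among the 12 largest rises, and its difference of 1.14 was not called (adjusted p 0.287). Its 2 other probe sets differed by -0.63 and -0.05.

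Medians of most gene lists also fell inside the range of the other sets, in 22 of 31 lists. The 9 lists outside compare with 2 (set D) to 14 (set F) in the other sets, so that their number is not particular to set E. Set E lay lowest for heat shock chaperones at -0.67 (others -0.58 to -0.28), glycolysis and glucose uptake at -0.55 (-0.51 to -0.31), oxidative phosphorylation at -0.13 (-0.10 to 0.05), DNA replication at -0.14 (-0.06 to 0.06) and ribosomal proteins at -0.005 (-0.004 to 0.06). After quantile scaling those of glycolysis, oxidative phosphorylation and DNA replication lay within the range. It lay highest for ERK feedback and early response at -0.32 (-1.06 to -0.38), ribosome biogenesis at -0.59 (-0.83 to -0.62), megakaryocyte and platelet genes at 0.17 (0.003 to 0.16) and interferon response at 0.15 (0.006 to 0.14). Without imatinib 2, the sample with the compressed scale, only 1 list lay below the range, heat shock at -0.59. Above it then lay STAT5 targets, ERK feedback, ribosome biogenesis and the K562 genes, while the megakaryocyte and interferon medians of 0.08 and 0.10 were inside. After quantile scaling 9 lists lay above the range and 4 below it. The heat shock and ERK lists kept their side under centring, quantile scaling and the removal of each imatinib sample.

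**Figure D5:**
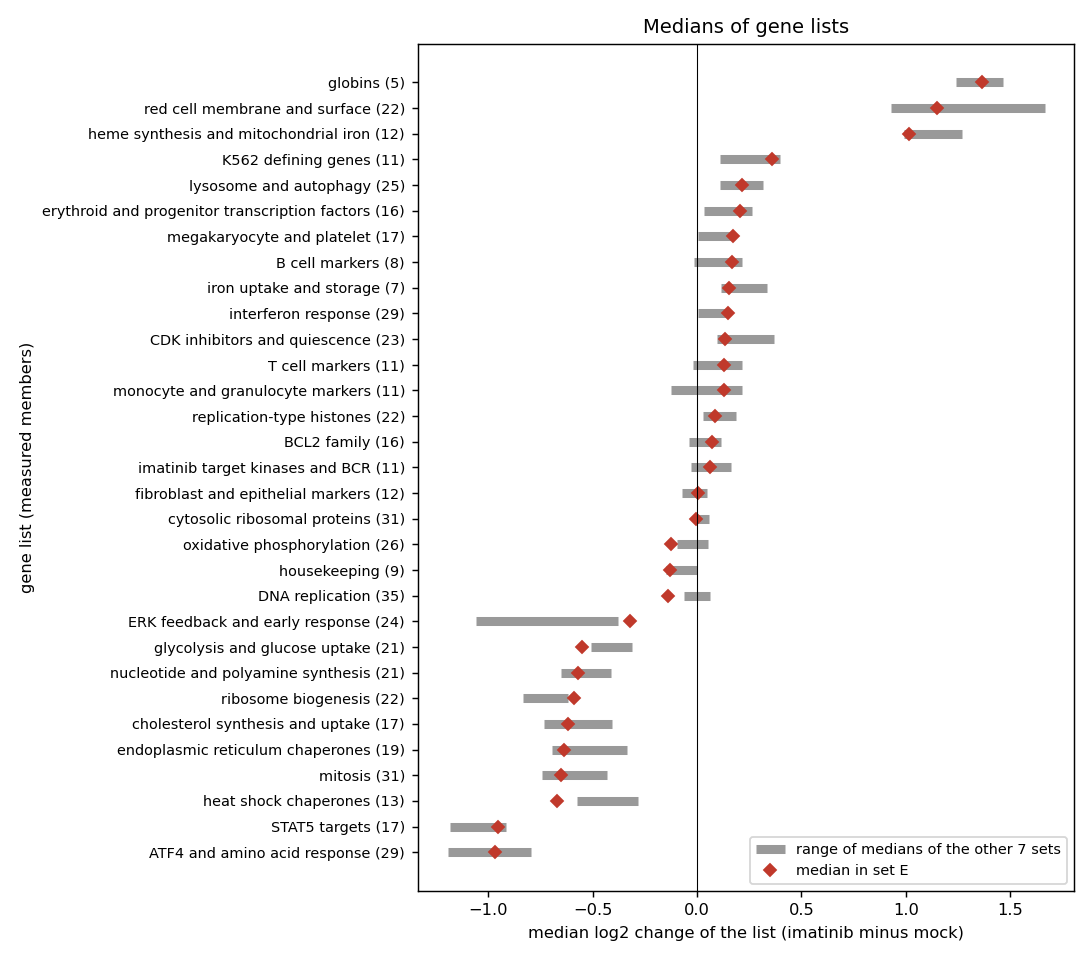
Median log2 change of 31 gene lists (number of measured members in brackets) in set E, shown as red diamonds, and the range of the medians of the other 7 sets, shown as grey bars. Globins, red cell membrane and heme genes are highest, STAT5 targets and the ATF4 response lowest, and the heat shock diamond at -0.67 lies left of its bar.

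The level of a gene went along with its change in set E. The median change was 0.07, 0.10 and 0.09 in the 3 dimmer groups of probe sets and -0.14 in the brightest group, where the other sets ranged from -0.18 to -0.03. In the dimmest group set E exceeded the others, which ranged from -0.01 to 0.06. Lists of bright genes, such as those of glycolysis and oxidative phosphorylation, had median levels of 9.57 and 9.89. The brightest group began at 6.99 in mock, and the dimmest members of these 2 lists lay at 5.20 and 6.43. The 4 lists above the range had median levels of 5.60 (interferon response), 5.99 (megakaryocytes and platelets), 6.08 (ERK feedback) and 7.59 (ribosome biogenesis). The part of the trend with level in the list medians was not tested.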

How the data were processed

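The authors deposited 1 log2 value per probe set and sample for 22283 probe sets of Affymetrix arrays; for summary, background correction and normalization the method is not given in the sources used here, and the log2 scale was read from the values (2.41 to 14.95). The deposited log2 values were used unchanged, without the 68 control probe sets. Of 22215 probe sets 19065 carry 1 gene symbol in the platform annotation, 1043 several and 2107 none; 19053 matched the RefSeq table of GRCh38.p14. A gene is its probe set with the highest mean in set E.

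Set E was fitted alone with limma 3.58.1 in R 4.3.3 (two-sided, Benjamini-Hochberg, threshold 0.05). Its difference from the other sets came from a fit over 48 samples in 16 groups with arrayWeights by group. Both fits were tested on simulated data. There, 26 of 162 calls of the difference were false, which exceeded the share the threshold implies. In the fit of set E alone 7 of 132 calls were false. Controls used exact permutation. Precision is limited by 3 samples in each group, and no background readings were used. Figures used matplotlib 3.10.9.

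Members and the 31 lists (573 of 677 entries measured) were chosen with earlier results of these data known. Named genes are the 12 largest rises and falls in set E at or above the median level without overlap, genes whose difference was called at such a level outside the range of the other sets, measured globins, TUBB1, BCR, ABL1 and the 3 or fewer lowest p-values of every list at such a level; further list members were chosen after their values were seen. Alternatives covered scaling, filtering, sample weights, blocks, and leaving out samples or sets.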

Additional observations from a re-analysis of the deposited data

Results flagged for a closer look

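The change after imatinib differed between set E and the mean of the other 7 sets, by the test of that difference, for 18 probe sets with 1 gene symbol. On the log2 scale the change in set E was more positive by 0.96 for HBZ, 0.61 for TFAM and 0.53 for WDR77, and more negative by -1.47 for TUBB1, -0.81 for ELL2, and -0.63 and -0.91 for the brighter and the dimmer probe set of ALAD. At lower levels the difference was 1.30 for the dimmest SLC2A3 probe set, 1.26 for CXCL8, 0.91 for CXCL3, 0.77 for ITPR1, 0.69 for TNFRSF21, 0.60 for COL1A2, 0.50 for LPL, 0.50 for AJAP1, 0.42 for ELOVL5, 0.42 for AHCYL1 and -0.52 for SLCO2B1. The largest adjusted p among all 18 was 0.0462 (limma). Only those of HBZ, TFAM, TUBB1, ELL2, CXCL3, LPL and the brighter one of ALAD are the brightest probe sets of their genes. With each set's change taken as 1 value the unadjusted p-values ran from 0.000885 for AJAP1 to 0.0796 for ITPR1, and every adjusted p was 0.995. Groups of 3 samples were too small for a search for single outlying samples.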

How the results depend on the processing

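The 4307 calls in set E became 3976 after centring arrays, 4494 after quantile scaling, 2633 with 1 probe set per gene (989 higher, 1644 lower), 7766 with sample weights (3980 higher), 6589 with all 48 samples in the fit (3215 higher) and 2995 to 7371 when a sample was left out (974 to 3703 higher, 1986 to 3668 lower). Centring moved the split of calls to 1169 higher and 2807 lower, and quantile scaling to 1896 and 2598. The 24 calls against the other sets became 9 among probe sets at or above the median level, 6 with 1 probe set per gene, 140 unweighted, 0 with set changes as units, 39, 37 and 7 without sets D, F and G, and 3 to 385 without single samples of set E. Probe sets above the range of the other sets numbered 2511 to 5481 and below it 2205 to 3584 without single samples. The poly-A difference was -0.26 after centring. The labels do not say that replicate numbers pair mock and imatinib samples. Deviations of samples with the same number correlated at 0.079, -0.0142 and 0.011, which cannot decide this with 3 samples in each group. With a replicate block 4307 probe sets were called in set E, of which 4060 were shared. Against the other sets 17 were called with it, and the ALAD call was lost (adjusted p 0.05). The ABL1 call in set E was also lost with the block (adjusted p 0.0547). HBE1 became called against the other sets with an intensity trend (adjusted p 0.0192), unweighted (0.00517), without imatinib 1 (0.0275) and without set C (0.042). Counts of genes called in a list moved by over 1.5 times in 125 cases over the alternatives and by less in 743. The median of all genes was 0.07 as deposited, 0.02 after centring and 0.04 after quantile scaling. No gene result tried changed its direction while called. Some list medians did change sign, such as those of oxidative phosphorylation and DNA replication, which turned positive after quantile scaling.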
